A study of Arabidopsis thaliana with 6 samples.

Results

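The genes described here restrain the plant cell cycle. They are the 7 KIP-RELATED PROTEIN genes *KRP1* to *KRP7*, *SIAMESE* (*SIM*) and *SIAMESE-RELATED 1* (*SMR1*), whose products inhibit cyclin-dependent kinases (CDKs), and *RETINOBLASTOMA-RELATED 1* (*RBR1*), the plant retinoblastoma homolog. These 10 genes were picked by locus identifier from a table of 33201 rows. All 10 had a row of their own, and the RefSeq names table of the TAIR10.1 assembly gives each of them a matching symbol or synonym. By their locus numbers, *KRP7* lies on chromosome 1, *KRP1* and *KRP4* on chromosome 2, *KRP3* and *SIM* on chromosome 5, and the other genes on chromosome 3. RNA came from the last 5 mm or so of the roots of *Arabidopsis thaliana* seedlings at 5 days, with 3 samples of the *an3* loss-of-function line and 3 samples of the wild type Columbia (Col). The AN3 protein is a co-activator that binds DNA through GRF partners, and the *an3* root tips were sequenced to look for repressors downstream of it that could act on the D-type cyclin gene *CYCD6;1*. Both genotypes were grown on MS medium with sucrose in long days, and the labels name no treatment. The deposited values are FPKM (fragments scaled to transcript length and to the mapped fragments of the library), with 1 value from the authors for each genotype that stands for its 3 samples together. No spread between replicates can therefore be shown, no test between genotypes could be computed from these values, and the read depth of each sample is unknown.

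A plant cell enters division when CDKs, bound to D-type cyclins, phosphorylate RBR1 and so free the E2F transcription factors that switch on genes for DNA replication. KRP proteins bind CDK and cyclin complexes and hold them inactive. SIM and its relatives do the same with other preferences, and are best known for the switch from mitosis to the endocycle, in which cells copy their DNA without dividing. In the root tip, RBR1 is known to restrict stem cell divisions, and it is a target of the kinase complex that contains CYCD6;1 in the cortex endodermis initial.

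The genotype labels were checked first. *AN3* (AT5G28640) had 21.5 FPKM in Col against 2.55 in *an3*, a log2 ratio of -3.02. All log2 ratios are of *an3* over Col after 0.1 FPKM was added to each value, so that the ratios of weakly expressed genes come out smaller than they are. A floor of 1 FPKM on the mean of both genotypes left 17229 rows. Their median log2 ratio was -0.0034, and the middle of the distribution, from percentile 5 to percentile 95, ran from -0.47 to 0.51. All 7 root tip markers were above 0 in both genotypes, with sums of 863 FPKM in Col against 1050 in *an3*, most of it from the endodermis gene *CASP1* with 681 and 891 FPKM. Of these markers, *PLT1* of the meristem was higher in *an3* by just over 1.5-fold, with 0.944 and 1.47 FPKM, a level near the floor. *CASP1* and the root cap gene *SMB* were also higher. *SCR* and *SHR* of the ground tissue and vasculature, *PLT2* of the meristem and *COBL9* of root hairs were lower, none of these 4 by more than 1.5-fold. The markers of green shoot tissue *CAB1*, *RBCS1A* and *RCA* summed to 45.0 FPKM in Col against 17.4 in *an3*. None of the shoot markers was at 0 in either genotype, all 3 were lower in *an3* by more than 1.5-fold, and their part in the ratios below was not tested.

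The inhibitor genes of root tips differed far more among themselves than between the genotypes. *SIM* was the most abundant and *KRP7* the least abundant in both genotypes, 60.4 times apart in Col and 124 times apart in *an3*. Between genotypes, 6 of the 10 genes had a higher value in *an3* and 4 a lower one, beside 49.4% of all rows above the floor with a higher value. Past 1.5-fold there was 1 gene, *KRP7*, with a lower value in *an3*, and none with a higher value. Of all rows above the floor, 3.06% were lower and 3.89% higher by that measure, so 1 lower gene among 10 is not set apart by its count.

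**Figure D1:**
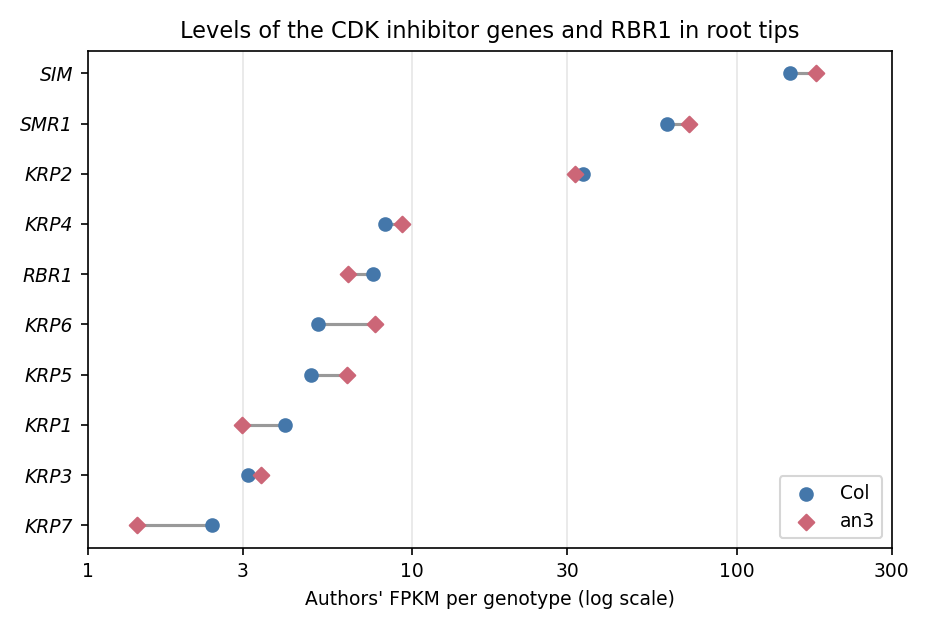
FPKM of the 10 genes (log scale) in Col (circles) and *an3* (diamonds), each symbol being the authors' single value for a genotype, with genes ordered by their Col value. *SIM*, *SMR1* and *KRP2* stand above 30 FPKM in both genotypes, and the other 7 genes below 10 FPKM.

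*SIM* (AT5G04470), first known for keeping leaf hairs single-celled, had 146 FPKM in Col against 176 in *an3*. Its log2 ratio was 0.27, and its mean lay above that of 96.8% of all rows. *SMR1* (AT3G10525), also known as *LGO* for its role in the giant cells of sepals, had 61.0 FPKM in Col against 71.2 in *an3*, with a log2 ratio of 0.22. These SIAMESE-type genes thus both had higher values in *an3*, and the ratio of *SIM* to *SMR1* was 2.39 in Col and 2.47 in *an3*. At such levels the ratios of other rows are narrow, from -0.27 at percentile 5 to 0.38 at percentile 95 of the rows near *SIM*. Of the 1545 rows with a mean within 2-fold of that of *SIM*, 15.6% had an absolute log2 ratio at least as large, and for *SMR1* the share was 24.1% of 3183 rows. The sum of *SIM* and *SMR1* was 206 FPKM in Col against 247 in *an3* (log2 ratio 0.26, or 0.20 after both columns had been scaled to the same sum).

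*KRP2* (AT3G50630), an inhibitor known for holding back lateral root initiation, was the leading KRP gene of the root tip. It had 33.5 FPKM in Col against 31.8 in *an3*, a log2 ratio of -0.07, the smallest ratio in size among the 10 genes. It made up 54.6% of the summed KRP values in Col and 50.6% in *an3*. *KRP4* (AT2G32710), known from cell size control in the shoot meristem, came next with 8.23 FPKM in Col against 9.28 in *an3*. *KRP2* was thus 4.07 times as high as *KRP4* in Col and 3.42 times as high in *an3*. *KRP4* had a log2 ratio of 0.17.

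The genes with the largest log2 ratios in size were all among the lower-expressed KRP genes, and they went in both directions. In FPKM, the largest differences were those of *SIM* (30.1) and *SMR1* (10.25). *KRP7* (AT1G49620) had 2.41 FPKM in Col against 1.42 in *an3*, a log2 ratio of -0.73. *KRP6* (AT3G19150) had 5.13 FPKM in Col against 7.66 in *an3*, a log2 ratio of 0.57, which is 1.48-fold and just inside the threshold. Both proteins are known from the male germ line, where they are removed before division. As a result of these opposite differences, the ratio of *KRP6* to *KRP7* was 2.13 in Col and 5.40 in *an3*.

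Low values carry wide ratios in this table, which bears on *KRP7* in particular. Of 4632 rows whose mean lay between 1 and 5 FPKM, 7.04% were lower by more than 1.5-fold. Of the 3722 rows with a mean within 2-fold of that of *KRP7*, 11.5% had an absolute log2 ratio at least as large, and the range from percentile 5 to percentile 95 of these rows was -0.75 to 0.83. The *KRP7* ratio thus lay inside that range. With 1 FPKM added in place of 0.1, its log2 ratio was -0.50, which is no longer past 1.5-fold. *KRP6* lay just above its own range of -0.48 to 0.53, and 7.78% of the 5642 rows of like level had a ratio at least as large.

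**Figure D2:**
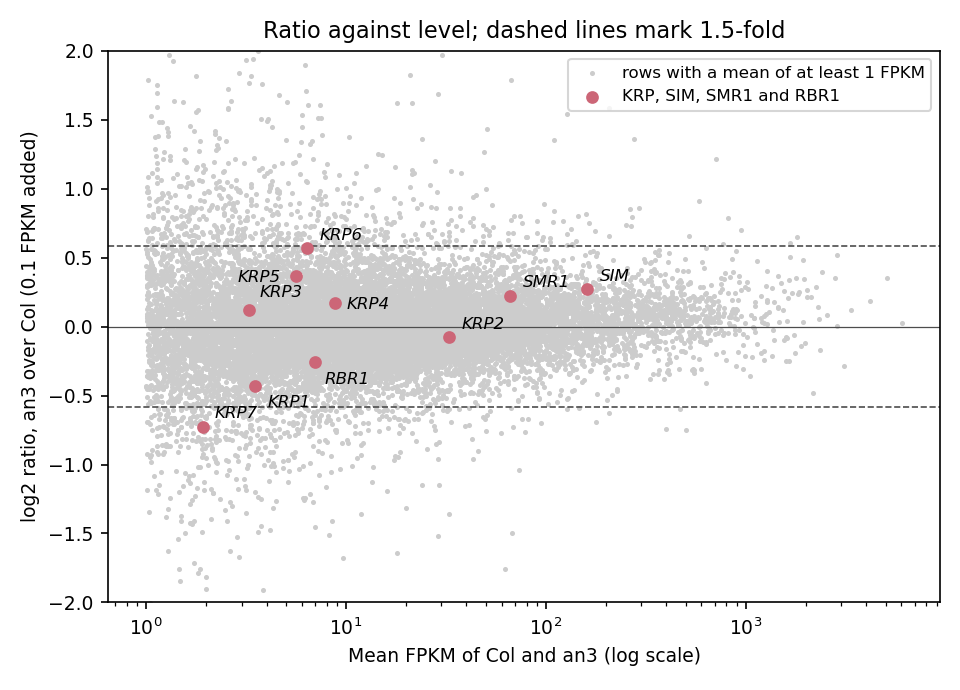
Log2 ratio of *an3* over Col (0.1 FPKM added) against the mean FPKM of both genotypes (log scale), with 1 grey point for each row above the floor of 1 FPKM, the 10 genes in red and dashed lines at 1.5-fold. *KRP7* alone of the 10 lies beyond a dashed line, at -0.73, and *KRP6* lies just inside at 0.57, and 52 grey points fall beyond the drawn limits of -2 and 2.

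*KRP1* (AT2G23430), the founding member of the family, had 4.05 FPKM in Col against 2.98 in *an3*, a log2 ratio of -0.43. *KRP5* (AT3G24810), known for promoting the endocycle in roots, had 4.86 FPKM in Col against 6.31 in *an3*, a log2 ratio of 0.37. *KRP3* (AT5G48820), another inhibitor of the family, had 3.12 FPKM in Col against 3.41 in *an3*, a log2 ratio of 0.12. Taking a lower threshold of 0.32 on the log2 scale, *KRP1* and *KRP7* were lower and *KRP5* and *KRP6* were higher, which makes 2 of 10 genes in each direction. The same threshold was passed by 10.2% of all rows downward and by 11.4% upward. In sum, 3 of the 7 KRP genes had a lower and 4 a higher value in *an3*, beside 49.4% of all rows with a higher value.

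Added together, the KRP values hardly differed. The 7 genes summed to 61.3 FPKM in Col against 62.8 in *an3*, a log2 ratio of 0.04 that turned to -0.02 after both columns had been scaled to the same sum. The make-up of this sum was less even. *KRP6* made up 8.37% of it in Col and 12.2% in *an3*, *KRP5* 7.93% and 10.04%, *KRP1* 6.62% and 4.75%, and *KRP7* 3.93% and 2.26%. The shares of *KRP3*, at 5.10% and 5.42%, and of *KRP4*, at 13.4% and 14.8%, were close in the genotypes. All 9 inhibitor genes together summed to 268 FPKM in Col against 310 in *an3*, most of it from *SIM* and *SMR1*. Since FPKM counts transcripts per length and not proteins, these sums say nothing of inhibitor activity.

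**Figure D3:**
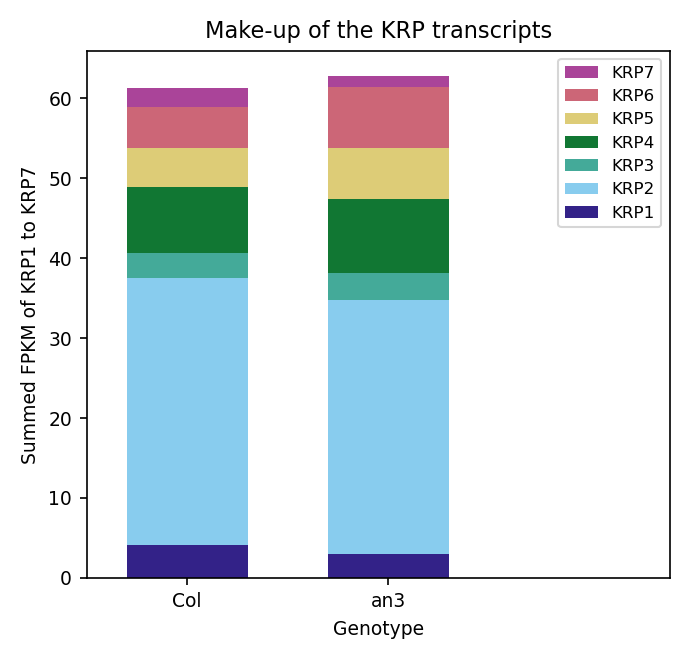
Summed FPKM of *KRP1* to *KRP7* in each genotype, with bars stacked by gene from the authors' single value per genotype. The totals are 61.3 FPKM in Col against 62.8 in *an3*, with *KRP2* the largest part of both and *KRP6* the part that differs most in size upward.

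*RBR1* (AT3G12280), the repressor that the inhibited kinases would otherwise phosphorylate, had 7.58 FPKM in Col against 6.34 in *an3*. Its log2 ratio was -0.25, and 33.0% of the 5780 rows of like level had a ratio at least as large. *RBR1* was thus lower in *an3*, well within the range of -0.47 to 0.51 of such rows. Its kinase *CDKA;1*, the main CDK of the G1 to S step, had 37.5 FPKM in Col against 44.5 in *an3*. There were 4.95 FPKM of *CDKA;1* for each FPKM of *RBR1* in Col and 7.02 in *an3*. Set against the same kinase, the KRP sum was 1.63 times *CDKA;1* in Col and 1.41 times in *an3*. The sum of *SIM* and *SMR1* was 5.51 times *CDKA;1* in Col and 5.55 times in *an3*. These are ratios of transcript values, not of proteins, and the spread of such ratios over other genes was not computed. The *RBR1* value may also include reads of an overlapping gene, described below.

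In order of level, the genes ran *SIM*, *SMR1*, *KRP2*, *KRP4*, *RBR1*, *KRP6*, *KRP5*, *KRP1*, *KRP3* and *KRP7* in Col. In *an3* the order was the same except that *KRP6* stood above *RBR1* and *KRP3* above *KRP1*. With 1 value per genotype it cannot be said which neighbours in this order differ beyond their spread. In whole root tips, fewer cells that express a gene and less RNA per cell cannot be told apart.

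For 4 of the genes an overlapping gene could share reads, since no source used here says whether strand was used in counting. *KRP4* overlaps *CB5-B* (AT2G32720), a cytochrome b5 gene that was much higher, with 124 FPKM in Col against 125.3 in *an3*. *RBR1* overlaps *PRMT3* (AT3G12270), an arginine methyltransferase gene that had 13.4 FPKM in Col against 9.98 in *an3*, a log2 ratio of -0.43. The direction of *PRMT3* was thus the same as that of *RBR1*, and whether reads were shared was not tested. *SIM* and *SMR1* each overlap an uncharacterized gene (AT5G04475 and AT3G10527) for which no row was used here. The values of these 4 genes are uncertain to that extent.

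The genes that the inhibitors and RBR1 act with were taken from 9 lists ordered by role. Of their 69 genes, 62 were above the floor of 1 FPKM, and of these 1 was higher and none lower by more than 1.5-fold, against 3.89% and 3.06% of all rows. The median log2 ratio was -0.01 over the 62 genes and 0.15 over the 10 inhibitor and *RBR1* genes, beside -0.0034 over all rows. Hence 61 of the 62 genes around the inhibitors stayed within 1.5-fold, as did most of all rows above the floor. The count does not set these genes apart.

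The gene past 1.5-fold was *SMR7* (AT3G27630), a SIAMESE relative known for its induction by DNA damage and oxidative stress. It had 1.15 FPKM in Col against 2.70 in *an3*, a log2 ratio of 1.17, at a level where ratios spread widely. Of the 12 further loci listed as SIAMESE relatives, 3 carry an SMR name in the RefSeq names table, and the others are given by locus. Of the 8 above the floor, 7 had a higher value in *an3*, beside 49.4% of all rows above the floor. The median log2 ratio of the 8 was 0.19, or 0.14 after scaling to the same sum and 0.05 with a floor of 5 FPKM. AT1G10690, annotated as a CDK inhibitor, had 11.3 FPKM in Col against 16.1 in *an3*, a log2 ratio of 0.51. AT5G02420, annotated as an SMR3-like CDK inhibitor and the most abundant of them, was nearly the same in both, with 66.8 and 66.1 FPKM. In order of level it thus stood beside *SMR1*.

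Of the 5 CDK genes listed as bound by the inhibitors, none passed 1.5-fold, against 3.89% of all rows upward and 3.06% downward. Binding was not checked for each kinase. The median log2 ratio of the 5 genes was 0.17. The highest ratio was that of *CDKB1;2*, a kinase gene of the G2 to M step, with 5.96 FPKM in Col against 7.71 in *an3*, and the lowest that of *CDKB2;1*, with 10.6 and 9.74 FPKM. Of the 10 D-type cyclins, which bring CDKA;1 to RBR1, 8 were above the floor and none passed 1.5-fold, with a median log2 ratio of 0.08 that was -0.00050 with a floor of 5 FPKM and 0.15 without a floor. *CYCD2;1* was the most abundant, with 18.9 FPKM in Col against 21.2 in *an3*. *CYCD5;1* had the lowest log2 ratio, -0.52, and *CYCD4;1* the highest, 0.24. The cyclin partners thus spread to both sides of 0, as the KRP genes did.

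Among the genes listed as partners and targets of RBR1, most values were lower in *an3*, but not those of the E2F, DP and DEL genes. Of these 8 genes, 4 had a higher and 4 a lower value. No gene of the lists in this paragraph passed 1.5-fold, against 3.89% of all rows upward and 3.06% downward. The 8 E2F, DP and DEL genes, which code for the factors that RBR1 holds and their relatives, had a median log2 ratio of 0.02, which turned to -0.04 after scaling to the same sum and to -0.02 with a floor of 5 FPKM. They ran from *E2FA* at -0.23 to *DEL3* at 0.14, and *DPA* was the most abundant with 11.5 FPKM in Col against 11.4 in *an3*. Of 9 genes listed as partners of RBR1 in repressor complexes, a role not checked for each, 8 had a lower value in *an3*. Their median log2 ratio, over all 9 genes, was -0.06. They ran from *ALY1*, at -0.34, to *TSO1*, at 0.08, and the chromatin assembly subunit gene *MSI1* was the most abundant with 21.1 FPKM in Col against 19.6 in *an3*. Of 7 E2F target genes, 5 had a lower value, with a median of -0.19. *CDT1A*, which licenses replication origins, was lowest at -0.35, with 17.3 FPKM in Col against 13.6 in *an3*. *PCNA2* was highest at 0.25, and *TSO2*, a ribonucleotide reductase gene, was the most abundant with 40.1 FPKM in Col against 44.4 in *an3*. Of all rows above the floor, 49.4% had a log2 ratio above 0.

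The genes listed for inhibitor turnover, kinase activation and the endocycle also stayed within 1.5-fold, as did most of all rows above the floor. That threshold was passed by only 3.89% of all rows upward and by 3.06% downward. Of 5 ubiquitin ligase genes listed for the breakdown of the inhibitors, a role not checked for each, 4 were above the floor. The log2 ratios of these 4 ran from -0.05 for *FBL17* to 0.11 for *RHF1A*, with *RHF2A* the most abundant at 53.0 and 53.9 FPKM. Their median of 0.04 turned to -0.02 after scaling to the same sum. Of 8 genes for CDK-activating kinases, CKS docking proteins and *WEE1*, the highest was *CKS1*, with 32.3 FPKM in Col against 45.3 in *an3*, a log2 ratio of 0.49, and the lowest *CYCH;1*, at -0.27. The median of these genes was 0.09. All 5 endocycle switch genes had a lower value in *an3*, while 49.4% of all rows above the floor had a log2 ratio above 0. The median of these 5 genes was -0.16, with a range from -0.26 for *CCS52A1*, an activator of the anaphase-promoting complex, to -0.09 for *CCS52B*. *GTL1*, which restrains the endocycle in leaf hairs and root hair growth, was the most abundant of them, with 73.1 FPKM in Col against 65.5 in *an3*. These switch genes thus lay on the same side of 0 as *RBR1*, *KRP1*, *KRP2* and *KRP7*, and on the other side from the other 6 genes. Because the list joins *GTL1*, which restrains the endocycle, with other switch genes, the shared sign gives no direction for the endocycle.

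**Figure D4:**
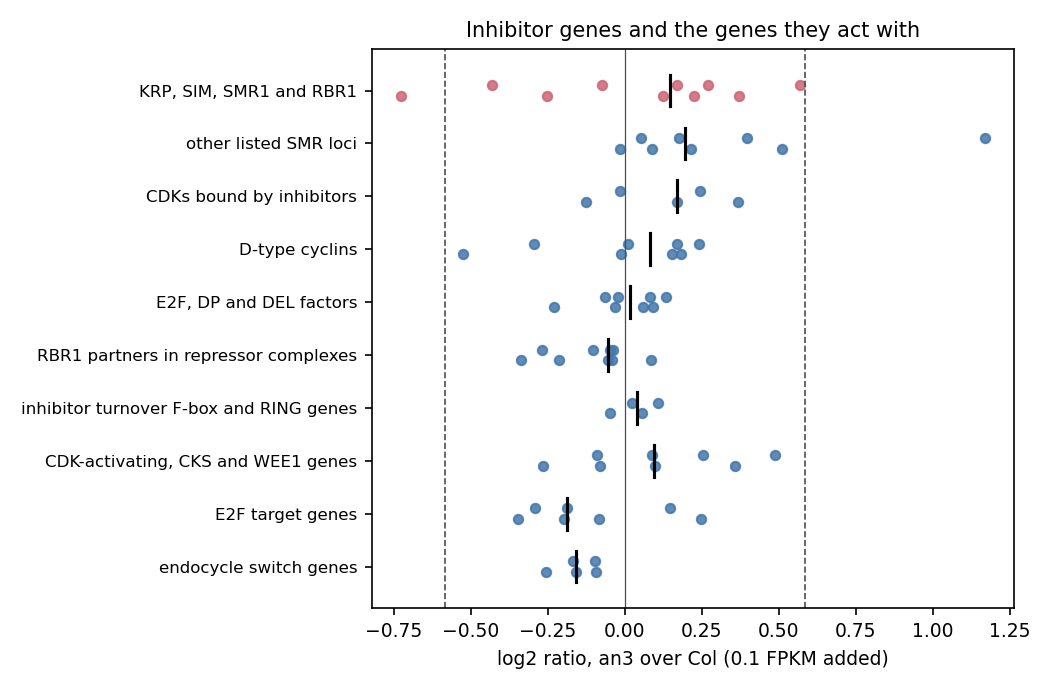
Log2 ratio of *an3* over Col (0.1 FPKM added) for each gene above the floor of 1 FPKM, by list, with a black bar at each list's median and dashed lines at 1.5-fold. The 10 inhibitor and *RBR1* genes (red) run from -0.73 to 0.57 around a median of 0.15, and *SMR7*, at 1.17, is the only gene of the other lists beyond a dashed line.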

How the data were processed

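Root tip RNA of 3 *an3* and 3 Col samples was sequenced as single-end reads of 100 bp. Trimming (fastq-mcf), alignment (HISAT2) and quantification (Cufflinks) were run by the authors in TuxNet, with versions, build and annotation not given in the sources used here. Each deposited FPKM value is the authors' estimate for 1 genotype, so no SD, interval or test could be computed from them. The table also holds the authors' log2 fold change and q-value for each row, which were not used. With Python 3.11.15, pandas 2.3.3 and numpy 2.4.6, log2 ratios were computed with a pseudocount of 0.1 FPKM. Rows whose mean reached 1 FPKM were compared with a threshold of 1.5-fold. The counting was run on a made table with known folds and no noise, which checks the code alone and not the calls. Rows of like level have a mean within 2-fold. Figures were drawn with matplotlib 3.10.9. The genes and lists were chosen with earlier results of these data known. Every inhibitor gene and *RBR1* is named, and from each list those past 1.5-fold, the most abundant, and the highest and lowest ratio. *PRMT3*, *CB5-B*, AT1G10690 and the low genes of the closing section were added after their values were seen. Names and overlaps come from the RefSeq table of TAIR10.1, which holds all 90 listed loci. Comparisons of protein and promoter sequence had been planned and were not run.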

Additional observations from a re-analysis of the deposited data

How the results depend on the processing

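No paired analysis was possible because the table holds 1 value per genotype, and leaving out each replicate was not run for the same reason. Of 50 alternative values for the log2 ratios of the 10 genes, none changed sign, and the largest shift was 0.23, for *KRP7* with a pseudocount of 1 FPKM. A different pseudocount cannot change a sign, and leaving out rows with several loci cannot change these values. Only the rescalings of the columns could therefore have changed a sign. The median of the 10 genes lay between 0.09 and 0.22 over the alternatives. The count of genes lower by more than 1.5-fold went from 1 to 0 with a pseudocount of 1 FPKM, with a mean of at least 5 FPKM, which leaves *KRP7* out, and at 2-fold. At 0.32 on the log2 scale it was 2 lower and 2 higher. In the 9 lists, the count of higher genes went from 1 to 3 without a filter on low values, which adds genes under 1 FPKM, and to 0 with a mean of at least 5 FPKM. At 0.32 on the log2 scale the lists held 6 higher and 3 lower genes. The medians near 0 changed sign in 3 lists, those of the D-type cyclins with a floor of 5 FPKM (-0.00050), of the E2F, DP and DEL genes with that floor (-0.02) and after scaling to the same sum (-0.04), and of the turnover genes after that scaling (-0.02). Depth limits the genes of low level most, *KRP7* and *SMR7* among them.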

Other observations

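Genes of the lists with a mean under 1 FPKM were left out of the counts. AT1G51355, annotated as an SMR3-like CDK inhibitor, had 0.160 FPKM in Col against 0.741 in *an3*. Its value was thus higher in *an3*, at a level where the counting error is unknown. The cyclin gene *CYCD6;1* had 0.349 FPKM in Col against 0.888 in *an3*, a log2 ratio of 1.14. The F-box gene *SKP2A* had 0.787 FPKM in Col against 0.981 in *an3*. AT2G37610 and AT5G59360, uncharacterized proteins in the RefSeq annotation, had 0.2997 and 0.637 FPKM in Col against 0.222 and 0.544 FPKM in *an3*. *SMR5*, a SIAMESE relative known for its response to oxidative stress, and the cyclin gene *CYCD7;1* were listed at 0 in both genotypes.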
